A study of Mus musculus with 6 samples.

Results

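ATP-binding cassette (ABC) transporters are proteins that use the energy of ATP to move lipids, drugs, peptides, bile salts, heme precursors and other compounds across membranes. They fall into subfamilies A to G by the sequence of their ATP-binding domain, and the members of subfamilies E and F span no membrane and act in translation. In bone marrow the family is known for the side population, the rare cells that pump out Hoechst dye and are enriched in blood stem cells. Abcg2 carries most of that efflux, and the P-glycoproteins, made in the mouse from Abcb1a and Abcb1b, can also export such dyes.

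The genes described here are those whose symbol in the platform annotation is Abc, a letter a to g and a number, with or without a last letter. There were 45 such genes, measured by 92 probe sets, of 18194 genes and 45101 probe sets in all. A gene with several probe sets was read from the one whose mean log2 level was highest. All 45 symbols are current mouse RefSeq symbols. Subfamily A had 14 members, B 8, C 10, D 3, E 1, F 3 and G 6.

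Expression had been measured on 6 Affymetrix arrays of LSK cells, the bone marrow cells that lack lineage markers and carry cKit and Sca1, among which are blood stem cells and early multipotent progenitors. Of the arrays, 3 were from GFP-positive and 3 from GFP-negative LSK cells of mice with the genotype Hes1 GFP/WT, aged 6 weeks, so the GFP-negative cells carried the reporter allele too. Hes1, induced by Notch signalling, encodes a repressor of transcription, and the comparison asks how LSK cells differ by the GFP signal from its locus. The mice were female for replicate 1 of each group and male for replicates 2 and 3, and the labels do not say whether each array came from a separate animal or a pool. Values are log2 intensities. A fold change is the GFP-positive mean less the GFP-negative mean on that scale.

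Array medians of the deposited intensities lay between 74.0 and 78.5. Of the LSK gate genes, Kit, the stem cell factor receptor, was at 9.69, 10.30 and 10.51 in GFP-positive arrays. In GFP-negative arrays Kit was at 10.72, 10.58 and 10.47. Ly6a, which encodes Sca1, was not analysed here. In the list of LSK and stem cell markers, Cd34, Flt3 and Cd48 were lower in every GFP-positive array than in any GFP-negative array. Their log2 fold changes were -0.63, -0.89 and -0.77 (limma adjusted p = 0.528, 0.759 and 0.592). Slamf1, at 1.41, overlapped, and Ly6e, at 0.09, was higher in every GFP-positive array. GFP-positive replicate 1 stood apart from the other arrays in endothelial and stromal markers: its median shift from the GFP-negative mean over 12 markers was 2.12, against 0.05 and -0.005 in GFP-positive replicates 2 and 3 and between -0.08 and 0.01 in the GFP-negative arrays. Median shifts in the GFP-positive arrays were 1.08 to 1.77 for 10 erythroid markers, 0.55 to 1.34 for 9 megakaryocyte markers, 1.72 to 2.68 for 9 B and plasma cell markers, 0.31 to 1.31 for 12 macrophage markers and 0.26 to 1.17 for 7 mast cell and basophil markers. In GFP-negative arrays the shifts of these 5 lists lay between -0.20 and 0.34. Members of a list did not all move together. Log2 fold changes were above 0 in 8 of 10 erythroid, 8 of 9 megakaryocyte and 8 of 9 B and plasma cell markers. The same held for 7 of 12 macrophage and 6 of 7 mast cell and basophil markers. Csf1r, a macrophage marker at -2.20, was lower in every GFP-positive array than in any GFP-negative array. The erythroid markers Hba-a1, Slc4a1 and Epb42 were at -0.04, 0.05 and -0.21. Summed marker intensities in GFP-positive against GFP-negative arrays were 6135 to 8213 against 1298 to 1644 for the erythroid list, 6732 to 9669 against 1716 to 3052 for megakaryocytes, 3991 to 10353 against 1108 to 2565 for B and plasma cells, 5773 to 10333 against 5532 to 7185 for macrophages and 3532 to 5412 against 2673 to 4255 for mast cells and basophils. The median of the granule genes of neutrophils and monocytes stood high in replicate 1 of both groups, with shifts of 1.47 in the GFP-positive array and 1.09 in the GFP-negative array. Within that list Elane, Ms4a3 and Ctsg, with log2 fold changes of 4.23, 2.61 and 0.87, were higher in every GFP-positive array than in any GFP-negative array. The groups overlapped for the rest of the list. Median shifts of T and NK cell genes lay between -0.05 and 0.24. What part cells of these types have in the values below was not tested. In sorted bulk samples more cells of a type and more RNA per cell cannot be told apart.

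**Figure D1:**
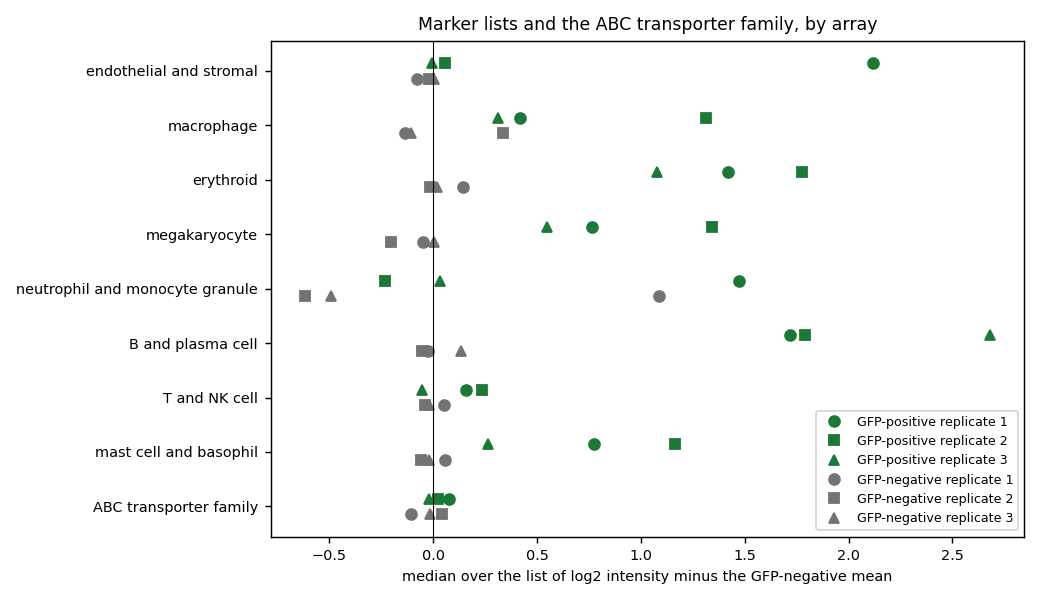
Median over each marker list of log2 intensity minus the GFP-negative mean (x axis, log2), for each array, with GFP-positive arrays in green above GFP-negative arrays in grey and the symbol giving the replicate number. The ABC transporter family, in the lowest row, stayed between -0.11 and 0.07 in all 6 arrays, while endothelial and stromal markers reached 2.12 in GFP-positive replicate 1.

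No ABC transporter passed the test between GFP-positive and GFP-negative cells, and the family as a whole was centred near 0. The median log2 fold change over the 45 members was 0.02, beside 0.01 over all genes, and 24 members lay above 0, which is 53.3% of them beside 51.3% of all genes. By limma with Benjamini-Hochberg adjustment over all genes, no member passed 0.05 in either direction (0 higher, 0 lower), as was the case for 0.0% of all genes higher and 0.0% lower, and the smallest adjusted p of a member was 0.636. At an unadjusted p under 0.05, limma gave 1 higher member (3.33% of all genes) and 2 lower members (3.38% of all genes). The 3 genes were Abcg3, Abcg1 and Abcc1, and their share of the members, 6.67%, was near the 6.71% of all genes. The groups did not overlap in 3 members, 1 above and 2 below, where 11.4% of all genes did not overlap (5.89% above and 5.51% below). When all probe sets of a gene were averaged, 0 members had an unadjusted p under 0.05.

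Most members differed little between the groups, and some were too dim to read. The absolute log2 fold change was under 0.5 in 32 of the 45 members and over 1 in 3 of them, Abcc9, Abcg3 and Abcb8. Y-linked genes in the female arrays reached 4.69 and Xist in the male arrays 5.59, and these levels serve below as the lower guide and the higher guide to background, although probe sets differ in their background. No array was above the lower guide for 11 of the 45 members, beside 2325 of all 18194 genes. Of these 11 members 7 were in subfamily A, 1 in B, 2 in C and 1 in G, and their values show only a dim signal. In 29 of the 45 members all 6 arrays were above the higher guide, beside 11342 of all 18194 genes. The range over the 6 arrays had a median of 1.17 over the members, beside 0.87 over all genes, and it reached 7.77 for Abcc9, 3.79 for Abcg3, 3.03 for Abcd2, 2.91 for Abcb8 and 2.69 for Abcc3. GFP-positive replicate 1 held the highest value of 12 of the 45 members and of 27.1% of all genes.

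**Figure D2:**
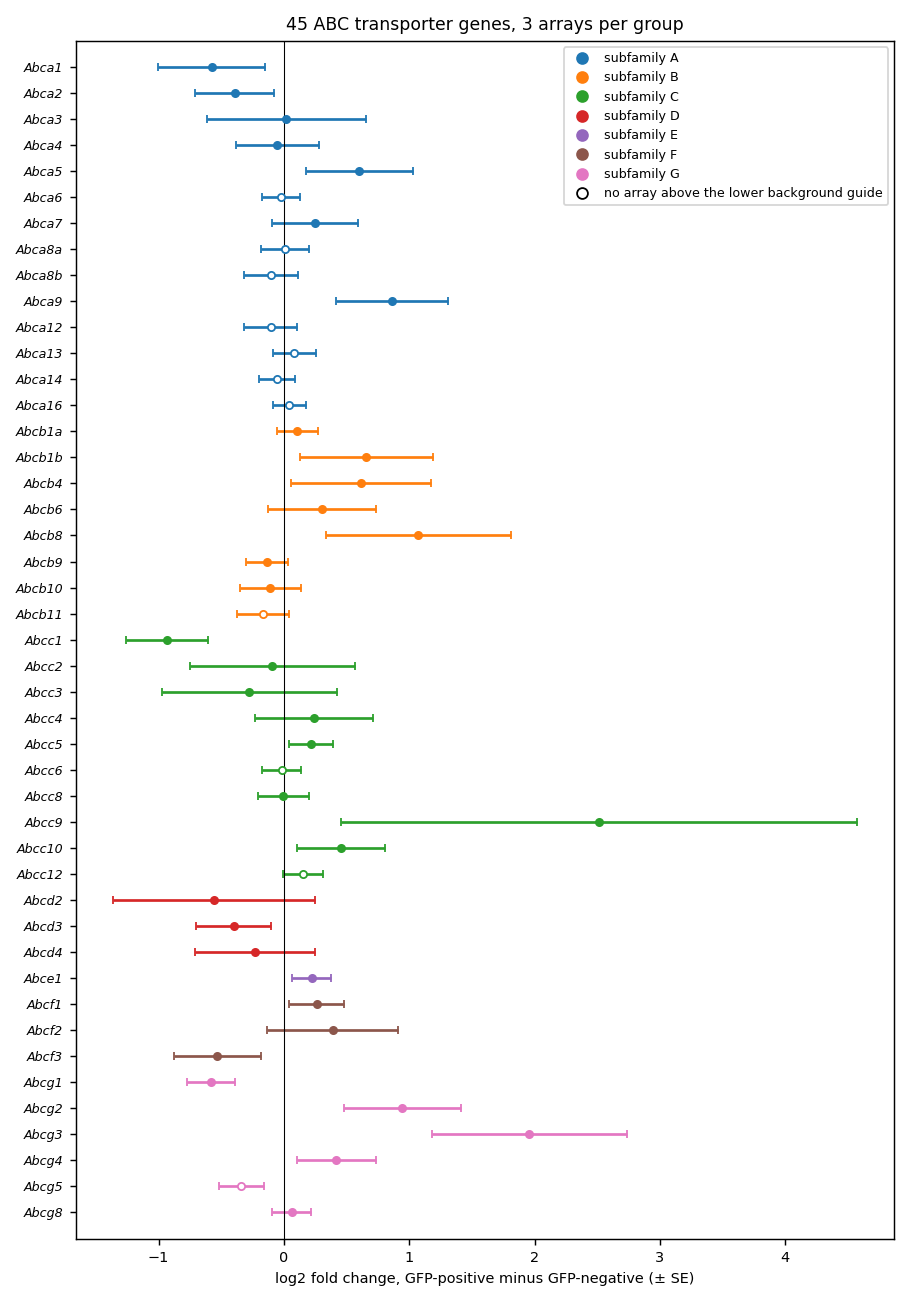
Log2 fold change, GFP-positive minus GFP-negative, with its limma standard error (x axis) for each of the 45 members (rows, grouped by subfamily colour, 3 arrays per group). Open symbols mark the 11 members with no array above the lower background guide, all of which lay within 0.34 of 0, and the wide bar of Abcc9 comes from 1 array.

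The side population transporter Abcg2, an exporter of dyes, drugs and porphyrins, had a higher mean in GFP-positive cells, but its arrays overlapped. Its single probe set read 9.23, 9.86 and 9.91 in GFP-positive replicates 1, 2 and 3 and 8.77, 7.83 and 9.57 in the GFP-negative ones. The GFP-positive arrays lay close together, while GFP-negative replicate 3 reached into their range and GFP-negative replicate 2 was lowest. The log2 fold change was 0.95 ± 0.47 (SE, n = 3 per group), a 1.93-fold ratio, with a limma adjusted p of 0.829. An exact permutation test, two-sided, gave p = 0.2, and 3 arrays against 3 cannot go below 0.1. Without GFP-negative replicate 2 the log2 fold change was 0.50, and without GFP-positive replicate 1, the array with high endothelial markers, it was 1.17.

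RefSeq (GRCm38.p6) lists 3 transcription start windows for Abcg2, on the plus strand of chromosome 6, and 1 for Abcg3, on the minus strand of chromosome 5. They are shown because these 2 genes had the largest positive differences in subfamily G and because the sorted reporter marks Hes1, a repressor that binds DNA. Each runs 5′ to 3′ from 250 bases before to 50 after the start. Capitals mark the N box CACNAG, and the class C site CACGCG was searched too, each on both strands. Both are motifs that Hes proteins bind. No 6 letters can match both.
Abcg2 chr6:58584283-58584582 (+): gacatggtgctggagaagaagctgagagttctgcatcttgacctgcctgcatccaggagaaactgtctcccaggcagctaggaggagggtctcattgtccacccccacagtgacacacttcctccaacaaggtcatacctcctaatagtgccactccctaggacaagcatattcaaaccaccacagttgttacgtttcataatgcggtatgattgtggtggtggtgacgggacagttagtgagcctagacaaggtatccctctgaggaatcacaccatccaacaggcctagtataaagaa
Abcg2 chr6:58596422-58596721 (+): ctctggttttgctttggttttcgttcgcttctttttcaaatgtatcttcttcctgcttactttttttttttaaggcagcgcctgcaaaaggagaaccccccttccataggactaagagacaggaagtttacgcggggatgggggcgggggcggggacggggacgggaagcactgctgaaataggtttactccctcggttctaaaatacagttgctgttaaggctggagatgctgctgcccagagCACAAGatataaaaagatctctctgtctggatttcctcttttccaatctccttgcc
Abcg2 chr6:58640296-58640595 (+): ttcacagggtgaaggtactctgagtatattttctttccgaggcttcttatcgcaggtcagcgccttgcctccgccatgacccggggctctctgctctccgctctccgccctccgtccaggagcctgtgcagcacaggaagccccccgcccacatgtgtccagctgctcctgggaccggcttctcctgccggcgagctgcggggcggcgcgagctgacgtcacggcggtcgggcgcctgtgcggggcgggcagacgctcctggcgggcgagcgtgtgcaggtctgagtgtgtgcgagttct
Abcg3 chr5:104982668-104982967 (-): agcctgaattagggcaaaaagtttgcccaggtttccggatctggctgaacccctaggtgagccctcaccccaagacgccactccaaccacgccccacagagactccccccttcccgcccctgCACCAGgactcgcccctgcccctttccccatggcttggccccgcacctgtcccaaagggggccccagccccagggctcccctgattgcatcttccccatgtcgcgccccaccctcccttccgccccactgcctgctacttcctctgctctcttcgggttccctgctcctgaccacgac
The second Abcg2 window held 1 N box, the Abcg3 window held 1, and the other Abcg2 windows held 0. None held a class C site. The N box was found in 42.5% of all 32851 windows of that length in the table and the class C site in 9.3%, and in 21 and 5 of the 42 windows of members. A match is a description of the letters in the window.

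The P-glycoprotein genes, the other dye exporters, did not separate the groups. Abcb1a was at 4.79, 5.11 and 4.87 in GFP-positive arrays and 4.76, 4.71 and 4.98 in GFP-negative arrays, all of them between the background guides. Its log2 fold change was 0.11 ± 0.17 (SE), and its other probe set gave -0.15. Abcb1b was above the higher guide on all arrays, at 8.57, 10.07 and 8.04 in GFP-positive arrays and 7.89, 8.36 and 8.45 in GFP-negative arrays. GFP-positive replicates 1 and 2 lay above all the GFP-negative values, and GFP-positive replicate 3 lay below 2 of them. Its log2 fold change of 0.66 ± 0.53 (limma adjusted p = 0.959) became 0.07 without GFP-positive replicate 2. Abcb1a, Abcb1b and Abcb4 follow one another on chromosome 5. Abcb4, which flips phosphatidylcholine into bile, was at 8.01, 9.04 and 7.52 in GFP-positive arrays, against 8.49, 6.82 and 7.43 in GFP-negative arrays, and it too was highest in GFP-positive replicate 2. How well the probe sets tell the closely related Abcb1a and Abcb1b apart was not tested.

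As a description of likeness over the 6 arrays, the genes whose profiles correlated best with Abcg2 were Nudt1, Tgm1 and Gm6958 (Pearson r = 0.992, 0.989 and 0.987). For Abcb1a they were Pttg1ip, Cerox1 and Gamt (r = 0.988, 0.984 and 0.977), and for Abcb1b Vegfb, AI661453 and Emc4 (r = 0.994, 0.994 and 0.993). With 18194 genes and 6 arrays that share their processing, values this high carry no test.

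**Figure D3:**
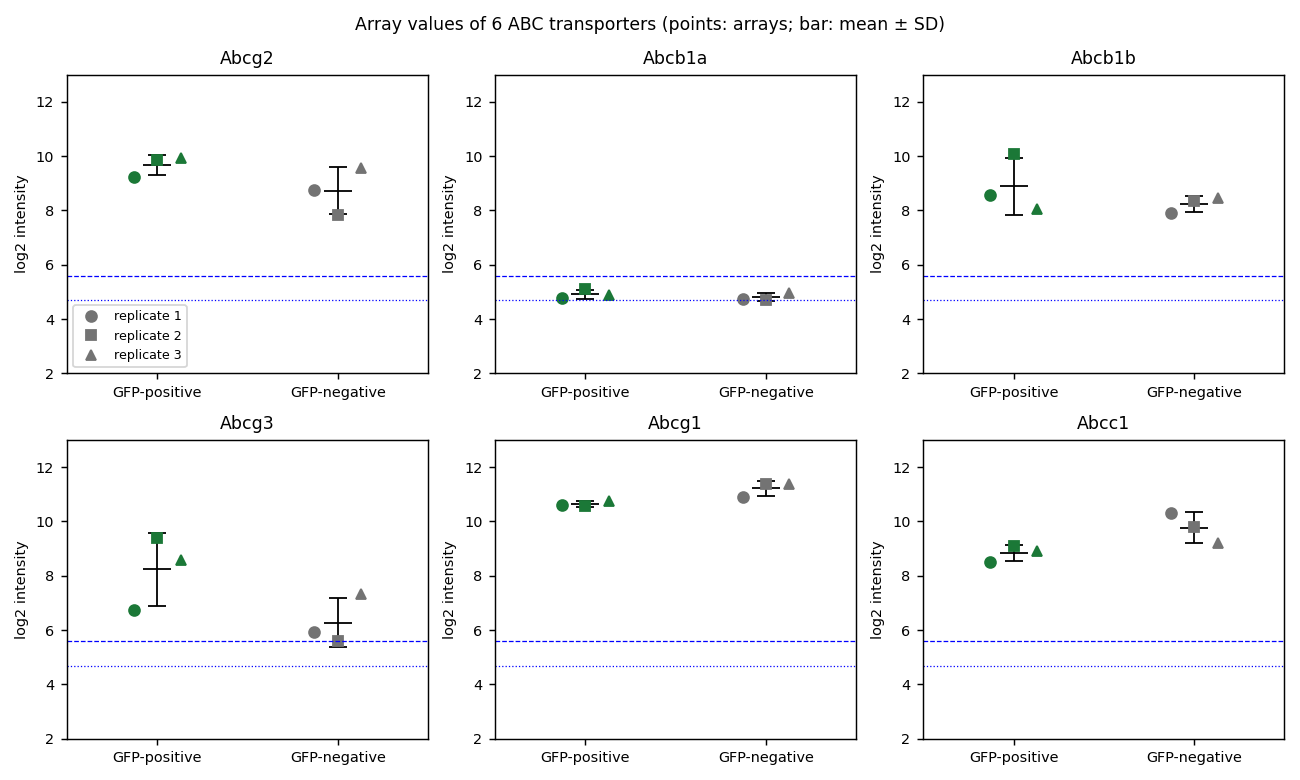
Log2 intensity (y axis) of Abcg2, Abcb1a, Abcb1b, Abcg3, Abcg1 and Abcc1 in each array, GFP-positive left of GFP-negative, with mean ± SD as black bars, the replicate number as the symbol and the lower (4.69, dotted) and higher (5.59, dashed) background guides. The groups are apart only for Abcg1 and Abcc1 among these 6, in both with the GFP-positive arrays below.

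Elsewhere in subfamily G, whose members work as dimers, Abcg3 and Abcg1 had opposite signs. Abcg3, a rodent gene related to Abcg2, was at 6.75, 9.38 and 8.58 in the GFP-positive arrays, by replicate number, against 5.92, 5.59 and 7.31 in the GFP-negative arrays. The groups overlapped, with GFP-positive replicate 1 below GFP-negative replicate 3. The log2 fold change was 1.96 ± 0.78 (SE), a 3.89-fold ratio, with an unadjusted p of 0.0454 and an adjusted p of 0.737 by limma. Its other probe set gave 1.08, and without GFP-positive replicate 1 the value was 2.70 (adjusted p = 0.426). Medians of the erythroid, B cell and megakaryocyte markers were high in the same 3 arrays, at the shifts given above. Macrophage markers overlapped, with a median shift of 0.31 in GFP-positive replicate 3 and 0.34 in GFP-negative replicate 2. Like Abcg3, the medians of the erythroid, megakaryocyte, macrophage, mast cell and T and NK cell lists were highest in GFP-positive replicate 2. Within the GFP-positive group Abcg3 was lowest in replicate 1, whereas the erythroid shift was 1.42 in replicate 1 and 1.08 in replicate 3. The part of any of these lists in the Abcg3 values was not tested.

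Abcg1, which hands cholesterol to high-density lipoprotein, was lower in every GFP-positive array than in any GFP-negative array: 10.62, 10.55 and 10.75 in GFP-positive arrays against 10.90, 11.39 and 11.37 in GFP-negative arrays. It averaged 10.64 ± 0.10 in the GFP-positive group and 11.22 ± 0.28 in the GFP-negative group (SD, n = 3 each), a log2 fold change of -0.58 ± 0.19 with an unadjusted p of 0.0224 and an adjusted p of 0.636 by limma. This was the smallest p of the family, and the two-sided exact permutation p was 0.1, the smallest the design allows. The other Abcg1 probe set, which was dimmer, gave 0.09. Of the remaining members, Abcg4, a sterol transporter of neural tissue, had a log2 fold change of 0.42 ± 0.32. Abcg5 and Abcg8, which together export plant sterols in liver and gut and lie side by side on chromosome 17, were at -0.34 ± 0.18 and 0.06 ± 0.16, Abcg5 with no array above the lower background guide. The subfamily G median was 0.24.

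Subfamily A moves lipids, and its 14 members had a median log2 fold change of -0.01, with 7 above 0. Abca1, which loads cholesterol and phospholipid onto apolipoprotein A1, was at 9.11, 7.60 and 8.67 in GFP-positive arrays and 9.01, 9.42 and 8.68 in GFP-negative arrays. GFP-positive replicate 2 was lowest and the other arrays lay close together. The log2 fold change was -0.58 ± 0.43 (limma adjusted p = 0.951), and the other probe sets disagreed, with -0.33 and 0.91. Abca3, a lipid carrier of lung surfactant, was at 9.84, 7.64 and 7.95 in GFP-positive arrays, against 8.94, 8.61 and 7.81 in GFP-negative arrays, with a log2 fold change of 0.02 ± 0.64 that turned to -0.66 without GFP-positive replicate 1. Abca9 was the one member with all GFP-positive arrays above all GFP-negative ones: 6.40, 5.01 and 4.84 in GFP-positive arrays against 4.64, 4.78 and 4.26 in GFP-negative arrays. Abca9 had a log2 fold change of 0.86 ± 0.44 (limma adjusted p = 0.855), its values straddled the lower background guide, and GFP-positive replicate 1, high in endothelial and stromal markers, was well above the other arrays. Without that array the value was 0.37.

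Abca5, Abca6, Abca8a, Abca8b and Abca9 lie in a row on chromosome 11. Abca5 was at 4.66, 6.22 and 4.89 in GFP-positive arrays, against 4.50, 4.82 and 4.63 in GFP-negative arrays, a log2 fold change of 0.60 ± 0.43 carried by GFP-positive replicate 2. Abca6, Abca8a and Abca8b had no array above the lower background guide, with log2 fold changes of -0.02, 0.01 and -0.10. The same held for Abca12, a ceramide carrier of skin, and for Abca13, Abca14 and Abca16, with log2 fold changes between -0.10 and 0.08. The lysosomal Abca2 was at -0.39 ± 0.32, the retinal Abca4 at -0.05 ± 0.33 and Abca7, which acts in phagocytosis, at 0.25 ± 0.34 (log2 fold change ± SE).

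In subfamily B, which also holds mitochondrial and lysosomal transporters, the median was 0.20 over 8 members and 5 lay above 0. Abcb8, of the mitochondrial inner membrane, was at 10.78, 8.38 and 10.05 in GFP-positive arrays and 9.69, 7.87 and 8.44 in GFP-negative arrays. The groups overlapped, and the 2 probe sets of the gene gave 1.07 and 1.24. The log2 fold change was 1.07 ± 0.74 (limma adjusted p = 0.935), and it was 0.55 without GFP-positive replicate 1 and 1.75 without GFP-positive replicate 2. Abcb10, an erythroid gene of mitochondrial heme synthesis, was at 8.53, 8.78 and 8.57 in GFP-positive arrays, against 8.41, 8.59 and 9.20 in GFP-negative arrays. The log2 fold change was -0.11 ± 0.24, while its other probe sets gave 0.95 and 0.03, so its direction depends on the probe set. The porphyrin transporter Abcb6 was at 0.30 ± 0.43 and the lysosomal peptide transporter Abcb9 at -0.14 ± 0.17. The bile salt exporter Abcb11 had a log2 fold change of -0.17 ± 0.21 with no array above the lower guide.

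Subfamily C holds the multidrug resistance proteins and the sulphonylurea receptors, and its median was 0.07 over 10 members. Abcc1, which exports glutathione conjugates and leukotriene C4, was lower in every GFP-positive array, at 8.51, 9.11 and 8.90, than in the GFP-negative arrays, at 10.32, 9.79 and 9.19. The gap between the groups was narrow at replicate 3 of the GFP-negative group. Abcc1 averaged 8.84 ± 0.30 in the GFP-positive group and 9.77 ± 0.57 in the GFP-negative group (SD, n = 3 each), a log2 fold change of -0.93 ± 0.33 with an unadjusted p of 0.03 and an adjusted p of 0.667 by limma. The two-sided exact permutation p was 0.1. Its other probe set overlapped between the groups, at 8.82, 9.92 and 8.39 in GFP-positive arrays and 9.92, 10.06 and 8.28 in GFP-negative arrays. That probe set gave a log2 fold change of -0.38. In the male arrays alone the probe set used for the gene gave -0.49. Abcc5, an exporter of cyclic nucleotides with 10 probe sets, had a log2 fold change of 0.22 ± 0.18, with probe sets from -0.64 to 1.10. Abcc10 was at 0.46 ± 0.35 and Abcc4, another exporter of cyclic nucleotides, at 0.24 ± 0.47. Abcc3, an exporter of bile salts and conjugates, was at 8.77, 6.71 and 6.09 in GFP-positive arrays and 7.07, 7.83 and 7.50 in GFP-negative arrays, so GFP-positive replicate 1 lay above and replicates 2 and 3 below all GFP-negative values. Abcc2, Abcc6, Abcc8 and Abcc12 had log2 fold changes of -0.09, -0.02, -0.005 and 0.15, with Abcc6 and Abcc12 in no array above the lower guide.

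Abcc9, the sulphonylurea receptor SUR2 of vascular smooth muscle and pericytes, was singled out after its values were seen. It read 11.72 in GFP-positive replicate 1, against 4.02 and 4.36 in GFP-positive replicates 2 and 3 and 3.96, 4.46 and 4.14 in the GFP-negative arrays. Its other probe sets had the same form, with 11.47 and 8.96 in that array and at most 2.94 elsewhere. Kcnj8, the potassium channel subunit that pairs with SUR2 and its neighbour on chromosome 6, was at 9.45 in GFP-positive replicate 1, at 3.76 and 3.71 in replicates 2 and 3, and between 3.70 and 3.91 in GFP-negative arrays. The endothelial cadherin Cdh5 was at 9.83, 4.91 and 4.65 in GFP-positive arrays and between 4.29 and 5.01 in GFP-negative arrays, and 10 of the 12 endothelial and stromal markers were highest in GFP-positive replicate 1. Summed over the 12 markers, intensity lay between 3775 and 13087 in GFP-positive arrays and between 4918 and 6042 in GFP-negative arrays. The Abcc9 log2 fold change of 2.51 ± 2.06 (limma adjusted p = 0.959) rested on that array: without it the value was 0.004, and within the male arrays it was -0.11. The single female array of each group is also replicate 1, so sex and replicate number cannot be told apart.

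**Figure D4:**
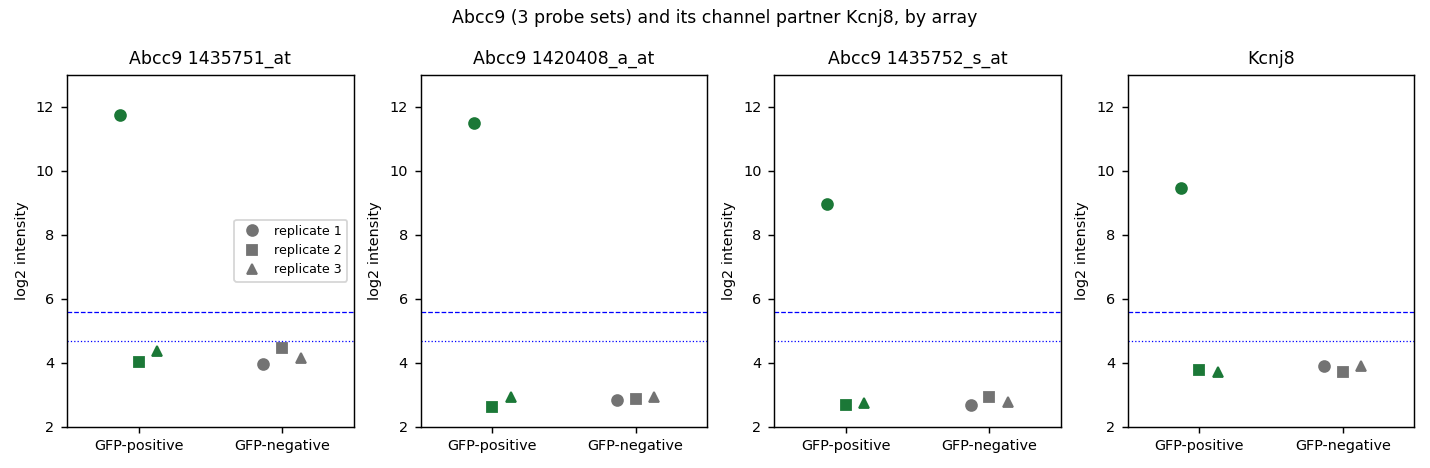
Log2 intensity (y axis) of the 3 Abcc9 probe sets and of Kcnj8 in each array, GFP-positive left of GFP-negative, with the replicate number as the symbol and the background guides as blue lines. GFP-positive replicate 1 lies between 8.96 and 11.72 in the 4 panels, and the other arrays lie at or below 4.46.

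The peroxisomal fatty acid transporters Abcd2 and Abcd3 and the lysosomal cobalamin transporter Abcd4 all had negative log2 fold changes, with a median of -0.40, and none separated the groups. Abcd3 was at 9.39, 9.66 and 9.60 in GFP-positive arrays, against 9.77, 10.58 and 9.50 in GFP-negative arrays, a log2 fold change of -0.40 ± 0.30, and its other probe set gave -0.43. Abcd2 was at 7.19, 6.11 and 7.30 in GFP-positive arrays and 6.09, 9.13 and 7.06 in GFP-negative arrays. The difference, a log2 fold change of -0.56 ± 0.80, came from GFP-negative replicate 2 and was 0.29 without that array. Abcd4 was at -0.23 ± 0.48 (log2 fold change ± SE) and at 0.24 without GFP-positive replicate 2.

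The soluble members were above the higher background guide on all arrays, and their groups overlapped. Abce1, which splits ribosomes for reuse, was at 10.85, 10.99 and 10.88 in GFP-positive arrays, against 10.86, 10.60 and 10.59 in GFP-negative arrays, a log2 fold change of 0.22 ± 0.15, with -0.03 and -0.19 in its other probe sets. Abcf1, a factor of translation initiation, was at 11.08, 11.21 and 11.26 in GFP-positive arrays, against 11.35, 10.68 and 10.74 in GFP-negative arrays, a log2 fold change of 0.26 ± 0.22. Abcf2 was at 0.39 ± 0.52 and Abcf3 at -0.53 ± 0.35 (log2 fold change ± SE). None of the 4 had an adjusted p under 0.923 by limma.

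Where a gene had several probe sets they often disagreed. Of 26 such members 14 had all probe sets on the same side of 0 and 12 on both sides. The 14 were Abcg3, Abcg4, Abcc1, Abcc9, Abcb8, Abcb9, Abcb1b, Abcd3, Abcd4, Abca3, Abca5, Abca9, Abca13 and Abcf2. The 12 were Abcg1, Abca1, Abcb1a, Abcb10, Abcc5, Abcc8, Abcc10, Abcc12, Abcd2, Abce1, Abcf1 and Abcf3.

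**Figure D5:**
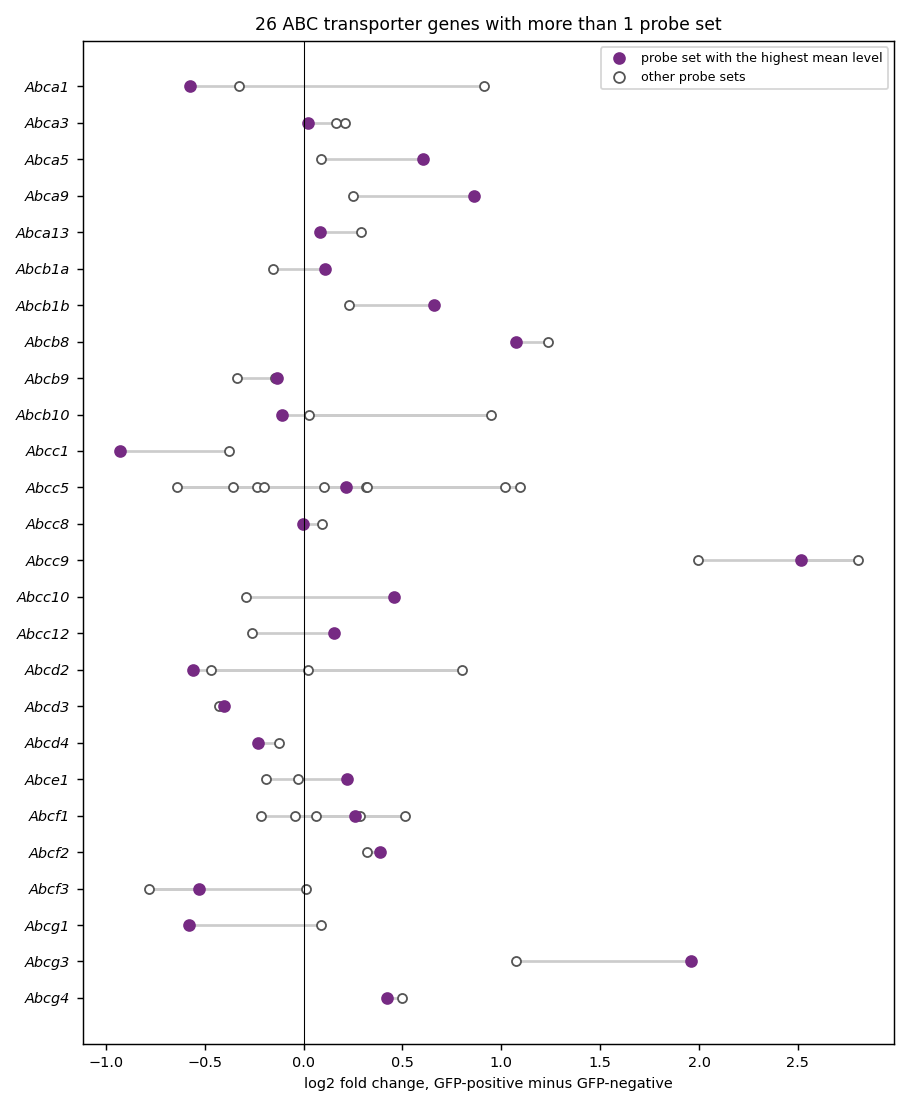
Log2 fold change, GFP-positive minus GFP-negative (x axis), of every probe set of the 26 members with more than 1 (rows), with the probe set of the highest mean level filled and the others open. Abcc5, with 10 probe sets, runs from -0.64 to 1.10.

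Lists of genes that regulate or work beside the transporters were read in the same fit. By limma 0 of their genes passed over all genes, and counts below are at an unadjusted p under 0.05, beside 3.33% higher and 3.38% lower of all genes. Of 20 cholesterol sensing and efflux genes 3 were higher and 1 lower, with a median log2 fold change of -0.25. Mylip, which marks the low-density lipoprotein receptor for breakdown, was at 7.62, 7.33 and 8.06 in GFP-positive arrays and 9.20, 9.15 and 9.10 in GFP-negative arrays, with no overlap, a log2 fold change of -1.48 ± 0.22 (limma adjusted p = 0.245). Apoe, an apolipoprotein that takes up exported cholesterol, averaged 9.65 ± 0.12 in GFP-positive arrays, against 8.85 ± 0.13 in GFP-negative arrays (SD, n = 3 each), a log2 fold change of 0.80 ± 0.15 with no overlap (limma adjusted p = 0.392). The other 2 higher genes, Nr1h3 and Lpl, were named after their values were seen. Nr1h3, the sterol receptor LXR alpha, was at 0.52 ± 0.16 with no overlap (limma adjusted p = 0.6045). Lpl, which releases fatty acids from lipoproteins, was at 3.04 ± 1.23 with overlapping groups (log2 fold change ± SE, limma adjusted p = 0.743). Lpl read 10.30, 8.15 and 5.43 in GFP-positive replicates 1, 2 and 3, against 5.86, 4.08 and 4.82 in the GFP-negative ones.

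Of 18 mitochondrial heme and iron-sulphur genes 3 were higher and 0 lower, with a median of 0.22. Cpox and Alad, enzymes of heme synthesis, had log2 fold changes of 1.23 ± 0.30 and 0.71 ± 0.21 (limma adjusted p = 0.490 and 0.581). In both, all GFP-positive arrays were above all GFP-negative ones. Alas2 and Fech, of the same list, were at 0.005 and 0.004 with overlapping groups. The median of the erythroid markers stood high in the GFP-positive arrays, though not every such marker did, and its relation to these genes was not tested. Of 22 genes of xenobiotic sensing and conjugation 1 was higher and 0 lower, with a median of 0.06. Gclm, of glutathione synthesis, was at 0.91 ± 0.33 and Gsta4, a glutathione transferase, at -1.05 ± 0.49 (log2 fold change ± SE). Of 14 genes of peptide transport and class I loading none had an unadjusted p under 0.05, and the median was -0.04. The trimming peptidase Erap1 was at -0.60 ± 0.29 and the peptide editor Tapbpl at -0.42 ± 0.24. Of 18 peroxisome genes 1 was lower and 0 higher, with a median of -0.10. Slc27a2, which activates fatty acids, was at -1.23 ± 0.43 and the import gene Pex2 at -0.48 ± 0.23. Of 15 translation genes 1 was lower and 0 higher, with a median of -0.11, where the release factor Etf1 was at -0.63 ± 0.24 and the initiation factor Eif2s2 at 0.31 ± 0.14.

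ABC proteins with other symbols, which the rule leaves out, also overlapped between the groups. The peptide transporter subunit Tap1 was at 9.46, 10.60 and 10.41 in GFP-positive arrays, against 10.31, 9.88 and 10.26 in GFP-negative arrays, and its partner Tap2 at 8.81, 8.19 and 8.69 in GFP-positive arrays, against 8.26, 9.18 and 8.88 in GFP-negative arrays. Their log2 fold changes were 0.01 ± 0.33 and -0.21 ± 0.30. Cftr, the chloride channel, had a log2 fold change of 0.48 ± 0.48 and no array above the lower background guide. Hes1 itself, whose locus carries the reporter, had a log2 fold change of 0.54 ± 0.24 (limma adjusted p = 0.780).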

How the data were processed

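Expression was measured on 6 arrays, 3 per group. RNA was amplified with the Ovation system before labelling, per the labels' protocols. Per the submitters' processing notes the authors used RMA, with no version or settings named. They deposited 1 linear intensity per probe set and array, of at least 4.12, and log2 was applied directly, without a pseudocount or renewed normalisation. RMA shrinks differences near background, and its quantile step removes shifts shared by most genes. Probe sets with 1 gene symbol in the platform annotation (34958) were used, and those with several (932) or none listed (9211) were left out. No filter on dim genes was set. The groups were compared with limma 3.58.1 (lmFit and eBayes, R 4.3.3) without covariates over 18194 genes, with Benjamini-Hochberg adjustment and a threshold of 0.05. Single members were also compared by an exact permutation test (scipy 1.17.1). The fit was tested on simulated data, where a log2 fold change of 1 passed the threshold in 16.5% of the changed genes. At log2 fold changes of 2 and 4 the shares were 59.8% and 86%, with a mean of 6 false calls per run. Each simulated run held many changed genes, most of them changed by 2 or 4, and many calls ease the Benjamini-Hochberg cutoff. In the data 0 genes passed, so the shares can be too high for this comparison. The number of arrays limits the precision. Since separate animals are not stated, a p-value here reflects the spread among these arrays, part of which may be technical.

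The members and lists were chosen with earlier results of these data known. By the rule for naming, the text gives Abcg2, Abcb1a, Abcb1b, members with an unadjusted p under 0.05, the 2 of highest mean and the 2 of smallest p in each subfamily, the 2 genes of smallest p in each partner list, Tap1, Tap2, Cftr, Hes1, and the 3 genes whose profiles are most like each of Abcg2, Abcb1a and Abcb1b. Other members are given because the family is described whole. Alternatives are in the closing section. The plots were made in Python 3.11.15 (matplotlib 3.10.9).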

Additional observations from a re-analysis of the deposited data

How the results depend on the processing

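No member passed an adjusted p under 0.05 by limma in any of 18 alternatives. Over all genes the higher count of 0 became 1 when genes under the 40th percentile of mean level were dropped, 2 under the 60th, 1 at a threshold of 0.1 and 0 to 5 when each array was left out (5 without GFP-positive replicate 3), and the lower count was 0 throughout. Members higher at an unadjusted p under 0.05, 1 as reported, numbered 0 with the mean of probe sets, 0 with the filter at the 60th percentile, 2 in the male arrays only, and 0 to 2 when an array was left out (0 without GFP-positive replicate 3, 2 without GFP-negative replicate 3). Lower members, 2 as reported, numbered 0 with the mean of probe sets, 1 with probe sets ending in _x_at or _s_at set aside, and 0 to 2 when an array was left out (0 without GFP-negative replicate 2, and 1 without GFP-positive replicate 2, GFP-positive replicate 3 or GFP-negative replicate 3). With the replicate number as a block there were 2 higher and 1 lower. Same-numbered arrays correlated at 0.124, 0.05 and 0.092 in their deviations from the group means, each best with its own number, which is a hint from the data and not the design, and so the numbers were not taken as pairs. The filters kept 26 and 16 members.

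The family median of 0.02 became 0.12 and 0.22 with the filters at the 40th and 60th percentile, -0.0796 in male arrays, and 0.0038 to 0.0878 when an array was left out. With these filters subfamily A went to -0.18 and -0.28 and B to 0.46 and 0.48. C went to 0.22 at the 60th percentile and G to 0.68 at the 40th, and C to -0.12 in male arrays. E (Abce1) went to 0.0011 with the mean of probe sets and -0.0288 with _s_at and _x_at sets aside. Leaving out an array gave 0.0426 to 0.33 for B, -0.0448 to 0.25 for C and -0.0825 to 0.47 for F. The cholesterol list, at -0.25, gave -0.15 with the mean of probe sets, -0.13 without _s_at and _x_at sets, -0.32 and -0.37 with the filters, -0.16 with array weights, -0.19 in males and -0.24 to -0.16 with an array left out. The mitochondrial list, at 0.22, gave 0.31, 0.35, 0.33, 0.41, 0.10 and 0.34 in the same order and -0.0123 to 0.31. The peptide list gave -0.14 to -0.0103 and the translation list -0.16 to 0.0315 with an array left out, and the translation list -0.0732 after renewed quantile normalisation.

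The sign of single members turned as follows. With the mean of probe sets Abca1 was at 0.0028, Abcb1a at -0.0226 and Abcb10 at 0.29. Abca3 was at -0.23 with array weights, -0.0077 with arrays centred on their medians and -0.42 in male arrays, where Abcc9 was at -0.11. Abce1 was at -0.0288 with _s_at sets aside. With an array left out Abca3 ran from -0.66 to 0.44, Abcb10 from -0.27 to 0.12, Abcd2 from -1.23 to 0.29, Abcd4 from -0.62 to 0.24 and Abcf2 from -0.0825 to 0.75. Single probe sets turned Abca1 (0.91), Abcb1a (-0.15), Abcb10 (0.95 and 0.0279), Abcc5 (-0.64, -0.36, -0.23 and -0.20), Abcc8 (0.094), Abcc10 (-0.29) and Abcc12 (-0.26). They also turned Abcd2 (0.80 and 0.0235), Abce1 (-0.0288 and -0.19), Abcf1 (-0.0461 and -0.21), Abcf3 (0.0106) and Abcg1 (0.086). Abcg2, Abcg3, Abcb8, Abcb1b, Abcc1, Abca5, Abca9 and Abcd3 kept their sign in each alternative. Abcg2 ran from 0.50 to 1.37 and Abcg3 from 1.08 to 2.70. The filters act by leaving members out; the cause of the other moves was not tested.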

Other observations

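Abcg2 and Abcg3 shared their order among the GFP-negative arrays with Slamf1, a surface marker of long-term stem cells from the list of LSK and stem cell markers, chosen after its values were seen. By replicate number, Slamf1 was at 6.90, 8.67 and 8.72 in GFP-positive arrays, against 6.16, 4.89 and 9.01 in GFP-negative arrays. In all 3 genes GFP-negative replicate 2 was the lowest array and GFP-negative replicate 3 the highest of its group. Flt3, a receptor of multipotent progenitors that stem cells lack, was at 11.99, 10.51 and 11.06 in GFP-positive arrays. It was at 12.13, 12.06 and 12.04 in GFP-negative arrays and did not follow that order. Cd34, at 12.30, 12.43 and 12.28, and Cd48, at 11.81, 11.91 and 12.37 in GFP-negative arrays, did not follow it either. Nor did Kit and Ly6e of the same list. The share of all genes with that order was not counted. The highest of all 6 arrays differed among the 3 genes. It was GFP-negative replicate 3 for Slamf1, GFP-positive replicate 3 for Abcg2 and GFP-positive replicate 2 for Abcg3. A link between the shared order and the share of stem cells was not tested.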
